A study of Mus musculus with 12 samples.

Results

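The 8 interferon transcription factors followed here were the signal transducer Stat2 and the interferon regulatory factors Irf1, Irf2, Irf3, Irf5, Irf7, Irf8 and Irf9. They were taken by gene name, and all 8 were found among the 32285 genes of the retina count table and the 55401 genes of the pericyte count table. Total RNA of 12 mouse samples with the genotype label WT was sequenced, in 4 groups of 3 libraries. Retinas were labelled as taken on day 1 after ONC, the field's abbreviation for optic nerve crush, with vesicles (labelled i.o.MSC.sEV) or with PBS, so that both retina groups carried the injury. Cultures labelled brain microvascular pericytes P4 were taken at 12 hours with MSC.sEV or with PBS. MSC.sEV is the usual abbreviation for small extracellular vesicles of mesenchymal stem or stromal cells. Strain, animal age, vesicle dose and whether libraries came from separate animals or cultures are not stated in the labels, so p-values measure the spread between these libraries, which may be technical.

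Interferons are secreted proteins that bind receptors on the cell surface and activate Janus kinases. Type I and type III interferons lead to phosphorylation of STAT2, which acts with IRF9 in the ISGF3 complex, and ISGF3 binds interferon-stimulated response elements (ISRE) in antiviral genes. Type II interferon acts through gamma-activated sites (GAS), and the Irf1 gene is a classic target of that signal. Before any interferon is made, nucleic acid sensors and Toll-like receptors activate IRF3, IRF5 and IRF7, which then drive interferon genes. Stat2, Irf1, Irf7 and Irf9 are among the factors that are themselves interferon-inducible, which closes a loop. IRF2 is best known for opposing IRF1 at shared sites and IRF8 for directing the development of monocytes and dendritic cells.

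The retina libraries held between 15580024 and 16842926 counts and the pericyte libraries between 33001248 and 37954077. Levels are given as CPM, the counts of a gene per 1000000 counts of the scaled library. A gene with 3 counts had 0.180 to 0.196 CPM in retina libraries and 0.0778 to 0.0895 CPM in pericyte libraries. Retina columns carry only the short names M and CTR, which were read as vesicles and PBS by inference, so every retina direction rests on that reading, and library numbers are column numbers. Retinas of both groups held the photoreceptor genes Nrl, at 1410 ± 172 CPM with vesicles and 2230 ± 31.3 CPM with PBS, and Crx, at 693 ± 63.3 and 1119 ± 91.6 CPM (SD, n = 3 each). Lens mRNAs took 1.88%, 7.17% and 0.0119% of counts in the vesicle retinas and 0.697%, 0.0737% and 0.0643% in the PBS retinas. In the pericyte-labelled cultures the mural genes Pdgfrb (70.8 CPM with vesicles and 59.7 CPM with PBS) and Acta2 (587 and 572 CPM) were present, while Rgs5, a common pericyte marker, stood at 0.891 and 0.283 CPM. The astrocyte genes Aqp4 (623 and 477 CPM) and Gfap (200 and 215 CPM) were also present there, as were the oligodendrocyte genes Olig1 (150 and 208 CPM) and Cnp (205 and 250 CPM), so the label is used as a label. Some markers of these kinds moved with the treatment. Of 8 tested mural markers 2 rose (Pdgfrb and Cspg4) and 2 fell (Notch3 and Anpep). Of 6 tested oligodendrocyte lineage markers 4 fell (Olig1, Olig2, Pdgfra and Cnp), and of 6 astrocyte markers Aqp4 rose and Gja1 fell. Their part in the culture results was not tested.

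The promoters of 5 factors are shown, chosen after their values were seen: 4 hold a match to one of these elements, and Irf7 had the largest rise in the cultures. Each window is RefSeq sequence of build GRCm38.p6, from 250 bases before to 50 bases after the annotated start, 5′ to 3′ on the strand of the gene. Capitals mark matches to the ISRE core (GAAA, a gap of any 2 bases, GAAA) or to the GAS core TTCNNNGAA, both searched on both strands. The Irf7 window has no capitals because it held neither.
Stat2, chr10:128270248-128270547, plus strand: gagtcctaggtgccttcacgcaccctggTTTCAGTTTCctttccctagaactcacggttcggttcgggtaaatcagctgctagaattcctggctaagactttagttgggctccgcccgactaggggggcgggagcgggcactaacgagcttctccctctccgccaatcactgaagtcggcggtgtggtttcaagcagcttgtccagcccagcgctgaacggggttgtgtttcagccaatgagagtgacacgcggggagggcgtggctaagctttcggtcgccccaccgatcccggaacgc
Irf1, chr11:53769764-53770063, plus strand: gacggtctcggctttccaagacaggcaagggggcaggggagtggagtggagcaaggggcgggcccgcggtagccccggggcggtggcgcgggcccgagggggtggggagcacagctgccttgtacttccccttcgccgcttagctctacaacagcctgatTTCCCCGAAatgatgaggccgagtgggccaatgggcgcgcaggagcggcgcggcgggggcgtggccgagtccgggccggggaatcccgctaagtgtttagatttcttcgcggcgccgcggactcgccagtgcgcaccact
Irf2, chr8:46739495-46739794, plus strand: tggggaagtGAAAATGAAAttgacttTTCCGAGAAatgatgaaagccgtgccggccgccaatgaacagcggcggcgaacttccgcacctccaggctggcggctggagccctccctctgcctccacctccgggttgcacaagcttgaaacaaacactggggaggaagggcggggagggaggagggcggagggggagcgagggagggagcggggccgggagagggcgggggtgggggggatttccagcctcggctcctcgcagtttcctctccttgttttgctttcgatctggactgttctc
Irf7, chr7:141266375-141266674, minus strand: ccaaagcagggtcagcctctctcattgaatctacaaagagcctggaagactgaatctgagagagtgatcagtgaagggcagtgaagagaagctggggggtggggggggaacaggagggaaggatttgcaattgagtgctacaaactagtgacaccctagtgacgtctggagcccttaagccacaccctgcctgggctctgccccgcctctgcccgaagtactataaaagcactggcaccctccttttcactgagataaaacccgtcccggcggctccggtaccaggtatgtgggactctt
Irf8, chr8:120736108-120736407, plus strand: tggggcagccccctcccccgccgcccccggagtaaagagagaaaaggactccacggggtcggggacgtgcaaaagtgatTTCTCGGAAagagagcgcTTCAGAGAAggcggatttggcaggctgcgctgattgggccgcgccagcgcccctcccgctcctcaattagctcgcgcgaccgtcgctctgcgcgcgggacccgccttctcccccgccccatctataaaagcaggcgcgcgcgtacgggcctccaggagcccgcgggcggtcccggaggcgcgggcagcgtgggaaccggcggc

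The Stat2 window held 1 ISRE core, written TTTCAGTTTC on the strand of the gene and beginning 222 bases before the start. The Irf1 window held 1 GAS core, TTCCCCGAA, 90 bases before the start. The Irf2 window held an ISRE core, GAAAATGAAA, at 241 bases and a GAS core, TTCCGAGAA, at 224 bases, with no overlap between them. The Irf8 window held 2 GAS cores, TTCTCGGAA at 171 bases and TTCAGAGAA at 153 bases. Neither core was found in the windows of Irf3, Irf5 and Irf7, in both windows of Irf9, or at a second annotated start of Irf1 and of Irf8. Both Irf9 windows (chr14:55603735-55604034 and chr14:55604329-55604628) begin past the gene start given below, 55603571. The bases before that start were not searched. Of 32851 RefSeq mouse promoter windows of 300 bases, 3.44% held the ISRE core and 8.3% the GAS core. A match is a description of letters, not a bound site.

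With vesicles, 6 of the 8 factors rose in the retina and 7 of the 8 rose in the pericyte-labelled cultures, and 0 fell in either. All 8 passed the filter on low counts in both tables, so no factor is missing from these counts. With the most lens-rich library of each retina group left out, 5 factors rose there. Calls are at an adjusted p under 0.05 in edgeR's quasi-likelihood test, adjusted over all genes tested. In the retina 15.9% of 15440 tested genes were called, 10.7% as higher and 5.19% as lower. In the cultures 19.8% of 16975 were called, 10.9% as higher and 8.90% as lower. The median log2 fold change of the 8 factors was 1.62 in the retina and 1.74 in the cultures, while that of all tested genes was -0.02 and 0.00056. Vesicle and PBS libraries did not overlap for all 8 factors in the retina, where 35.7% of tested genes did not overlap and 19.5% were higher without overlap. The same held for 7 factors in the cultures, where 33.8% of tested genes did not overlap and 17.4% were higher without overlap. In bulk RNA, more cells of a type and more RNA per cell cannot be told apart.

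**Figure D1:**
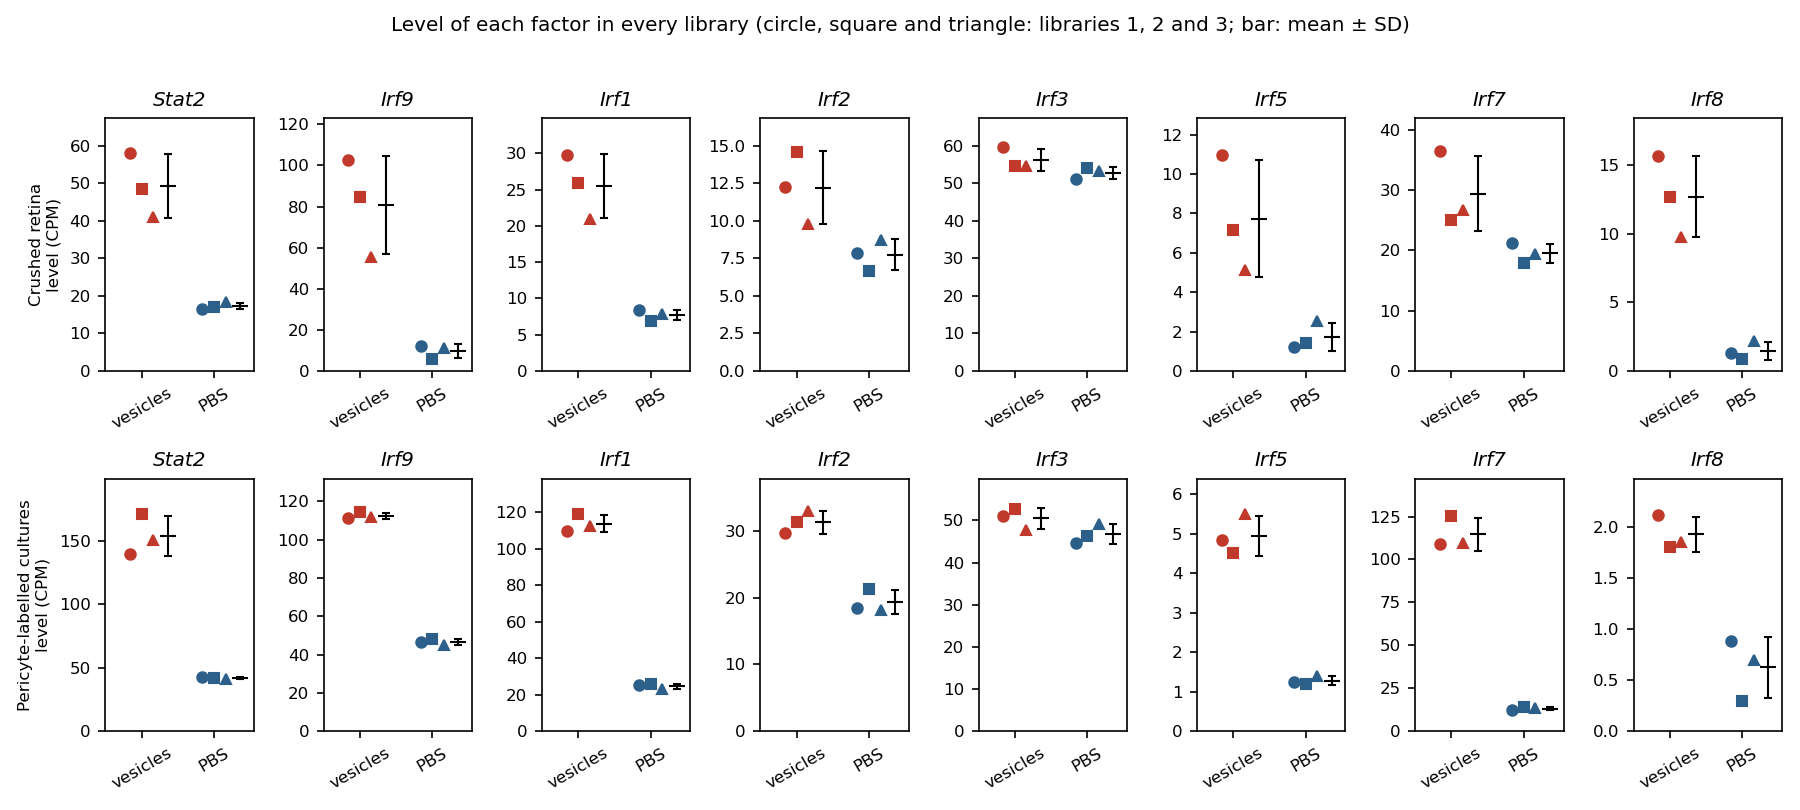
Level of each factor in CPM (vertical axis, linear, from 0) in every library, with vesicles in red left of PBS in blue, the retina above and the pericyte-labelled cultures below. Symbols mark libraries 1, 2 and 3 and bars the mean ± SD (n = 3). Each panel has its own scale. By fold, Irf3 differs least in both rows, with retina means of 56.3 and 52.8 CPM, and Irf7 most in the lower row, at 115 CPM with vesicles and 13.2 CPM with PBS.

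STAT2 and IRF9 are subunits of ISGF3: STAT2 carries the main activation domain and IRF9 contacts the ISRE. The gene of Stat2 lies at chr10:128270559-128292849 on the plus strand and that of Irf9 at chr14:55603571-55610030 on the plus strand (GENCODE M21, build GRCm38, as all gene positions here). In the retina, Stat2 stood at 58.0, 48.6 and 41.1 CPM in the vesicle libraries, against 16.5, 17.0 and 18.3 CPM in the PBS libraries. The PBS values lay close together and the lowest vesicle library was above all of them. The log2 fold change was 1.51 ± 0.14 (SE; 95% interval from 1.19 to 1.83; adjusted p = 0.00020 in edgeR), a 2.85-fold difference. Irf9 stood in the retina at 103, 84.7 and 55.3 CPM with vesicles, against 11.9, 5.96 and 11.1 CPM with PBS. Its log2 fold change was 3.07 ± 0.35 (adjusted p = 0.0030, edgeR), or 8.38-fold, and the groups did not overlap. When the most lens-rich library of each group was left out, a comparison added after seeing the data, the Irf9 change was 3.22 with adjusted p = 0.059.

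In the pericyte-labelled cultures Stat2 had the larger estimate of the pair. Stat2 reached 139, 171 and 151 CPM with vesicles, against 42.3, 42.2 and 41.0 CPM with PBS, a log2 fold change of 1.88 ± 0.071 (adjusted p = 1.7e-14, edgeR). Irf9 reached 111, 114 and 112 CPM with vesicles, against 46.5, 48.3 and 45.1 CPM with PBS, a log2 fold change of 1.27 ± 0.060 (adjusted p = 7.9e-13, edgeR). The Stat2 groups lay 3.67-fold apart and the Irf9 groups 2.42-fold apart, with no overlap for either gene. Irf9 shares 123 exonic bases with Rnf31 on the same strand, a gene for a subunit of the linear ubiquitin ligase. Rnf31 rose as well, with log2 fold changes of 0.87 ± 0.18 in the retina (adjusted p = 0.012) and 0.63 ± 0.077 in the cultures (adjusted p = 2.9e-06), so the split of reads between the pair is uncertain.

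IRF1 activates antigen presentation and antiviral genes, and IRF2 binds the same DNA motif and mostly represses. The gene of Irf1 lies at chr11:53770014-53778374 and that of Irf2 at chr8:46739732-46847458, both on the plus strand. In the retina, Irf1 stood at 29.8, 25.9 and 20.9 CPM with vesicles, against 8.35, 6.93 and 7.87 CPM with PBS. That is 3.31-fold, a log2 fold change of 1.73 ± 0.17 (adjusted p = 0.00025, edgeR), with every vesicle library above every PBS library. In the cultures, Irf1 stood at 110, 119 and 112 CPM with vesicles, against 25.3, 25.8 and 23.2 CPM with PBS. The 4.59-fold rise there (log2 fold change 2.20 ± 0.068, adjusted p = 5.5e-16, edgeR) far exceeded the spread within either group. Irf1 shares 135 exonic bases with the opposite-strand gene Gm17334, which had 2.91 CPM with vesicles and 0.981 CPM with PBS in the cultures, a small level beside that of Irf1.

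Irf2 had smaller estimates in both settings. In the retina it stood at 12.2, 14.6 and 9.75 CPM with vesicles, against 7.83, 6.69 and 8.71 CPM with PBS, and the lowest vesicle library lay just above the highest PBS library. The log2 fold change of 0.65 ± 0.20 (95% interval from 0.20 to 1.11) did not pass the threshold, with adjusted p = 0.056 in edgeR. Its adjusted p was 0.039 with DESeq2, 0.045 with no filter on low counts and 0.024 without vesicle library 3, and reached 0.21 in others. In the cultures it stood at 29.6, 31.2 and 33.0 CPM with vesicles, against 18.4, 21.3 and 18.2 CPM with PBS. The change there was of much the same size, 0.70 ± 0.090 (adjusted p = 5.9e-06, edgeR), and passed the test.

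IRF3 is present before infection and is switched on by phosphorylation, whereas IRF7 is made in most cells only after interferon signalling and amplifies the response. The gene of Irf3 lies at chr7:44997648-45002848 on the plus strand and that of Irf7 at chr7:141262706-141266481 on the minus strand. Irf3 did not pass the test in either setting. In the retina it stood at 59.6, 54.7 and 54.5 CPM with vesicles, against 51.1, 54.2 and 53.2 CPM with PBS. Its log2 fold change was 0.09 ± 0.09 (95% interval from -0.11 to 0.29, adjusted p = 0.54, edgeR). In the cultures it stood at 51.0, 52.8 and 47.8 CPM with vesicles, against 44.7, 46.3 and 49.3 CPM with PBS, and the groups overlapped. The log2 fold change there was 0.11 ± 0.070 (95% interval from -0.03 to 0.26, adjusted p = 0.32, edgeR), so the intervals of both settings bound an increase below 0.30 on the log2 scale.

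Irf7 gave the largest rise of the 8 in the cultures and the smallest called rise in the retina. In the cultures it stood at 109, 126 and 110 CPM with vesicles, against 12.1, 14.0 and 13.5 CPM with PBS, which is 8.70-fold (log2 fold change 3.12 ± 0.080, adjusted p = 2.9e-17, edgeR). In the retina it stood at 36.5, 25.0 and 26.7 CPM with vesicles, against 21.2, 18.0 and 19.3 CPM with PBS, which is 1.51-fold. Vesicle library 1 was the highest, and the other vesicle libraries lay only a few CPM above the highest PBS library. The retina log2 fold change was 0.59 ± 0.16 (adjusted p = 0.035, edgeR). The retina call was lost without vesicle library 1 (0.41, adjusted p = 0.13), PBS library 2 (0.53, adjusted p = 0.13) or PBS library 3 (0.58, adjusted p = 0.081), and with limma voom (0.57, adjusted p = 0.053). Its adjusted p lay between 0.013 and 0.13 over the alternatives run.

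IRF5 acts downstream of Toll-like receptors and MyD88 and drives inflammatory cytokines, mostly in myeloid and B cells. IRF8 is largely restricted to myeloid and lymphoid cells and microglia. The gene of Irf5 lies at chr6:29526625-29541871 and that of Irf8 at chr8:120736358-120756694, both on the plus strand. In the retina, Irf8 stood at 15.7, 12.6 and 9.75 CPM with vesicles, against 1.31, 0.851 and 2.16 CPM with PBS. These levels rest on 246, 200 and 158 counts with vesicles and 20, 14 and 36 counts with PBS. The 8.76-fold rise was the largest estimate among the 8 in the retina, with Irf9 next (log2 fold change 3.13 ± 0.34, adjusted p = 0.00047, edgeR). Irf5 stood at 11.0, 7.14 and 5.12 CPM with vesicles, against 1.24, 1.40 and 2.52 CPM with PBS in the retina. Its log2 fold change was 2.16 ± 0.38 (adjusted p = 0.0046, edgeR), and the groups did not overlap.

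Both genes were low in the cultures and still rose there. Irf5 stood at 4.83, 4.52 and 5.49 CPM with vesicles, against 1.24, 1.19 and 1.40 CPM with PBS (log2 fold change 1.95 ± 0.22, adjusted p = 9.1e-07, edgeR). Irf8 stood at 2.12, 1.81 and 1.86 CPM with vesicles, against 0.882, 0.297 and 0.702 CPM with PBS, from 71, 66 and 69 counts with vesicles and 34, 10 and 26 with PBS. The log2 fold change of Irf8 was 1.60 ± 0.38 (adjusted p = 0.0042, edgeR), and PBS library 2 was the lowest by far. Irf5 shares 411 exonic bases with the opposite-strand gene Tnpo3, an importin gene, whose log2 fold changes were -0.03 ± 0.10 in the retina and 0.01 ± 0.056 in the cultures, neither of them called. Whether the libraries kept the strand is not stated.

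Several leukocyte marker sums also rose in the retina, where the vesicle and PBS libraries of all 8 factors did not overlap. The summed level of 12 monocyte and macrophage markers lay between 831 and 1170 CPM with vesicles and between 113 and 159 CPM with PBS, 11 of the 12 rose, and none was at 0. The summed level of 10 neutrophil markers lay between 349 and 775 CPM with vesicles and between 4.32 and 16.5 CPM with PBS, all 7 tested markers rose, and Mpo and Elane were at 0 in every library. The 10 homeostatic microglia markers moved otherwise, with sums between 55.6 and 60.1 CPM with vesicles and between 81.9 and 85.3 CPM with PBS, 2 rising and 4 falling. The sum of 7 conventional dendritic cell markers lay between 14.6 and 19.5 CPM with vesicles and between 6.0 and 7.0 CPM with PBS, with Itgax and Cd209a rising among 4 tested. That of 9 T and NK cell markers lay between 3.27 and 9.87 CPM with vesicles and between 0.486 and 1.80 CPM with PBS, and the 1 marker tested, Gzma, rose. Of 12 markers of retinal neurons and Müller glia, 0 rose and 7 fell. Their part in the retina results of any of the 8 factors was not tested. Vesicle library 1 was the highest of the 6 for 7 factors, Irf5 and Irf8 among them, and vesicle library 3 the lowest vesicle library for 7. The neutrophil sum was highest in vesicle library 2, with 626, 775 and 349 CPM in vesicle libraries 1, 2 and 3.

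In the cultures the same markers gave another picture. The monocyte and macrophage sum lay between 140 and 199 CPM with vesicles and between 109 and 114 CPM with PBS, with 3 of 10 tested markers rising (Cd14, Ptprc and Adgre1) and the monocyte chemokine receptor gene Ccr2 at 0 in all libraries. The neutrophil sum was at most 0.458 CPM with vesicles and 0.389 CPM with PBS, with 5 of the 10 markers at 0. Of 7 tested microglia markers 0 rose and 0 fell in edgeR, with sums between 176 and 192 CPM with vesicles and between 187 and 199 CPM with PBS. Ptprc, the pan-leukocyte gene CD45, stood at 1.13 CPM with vesicles and 0.254 CPM with PBS. The part of these cells in the culture changes of Irf5 and Irf8 was not tested.

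**Figure D2:**
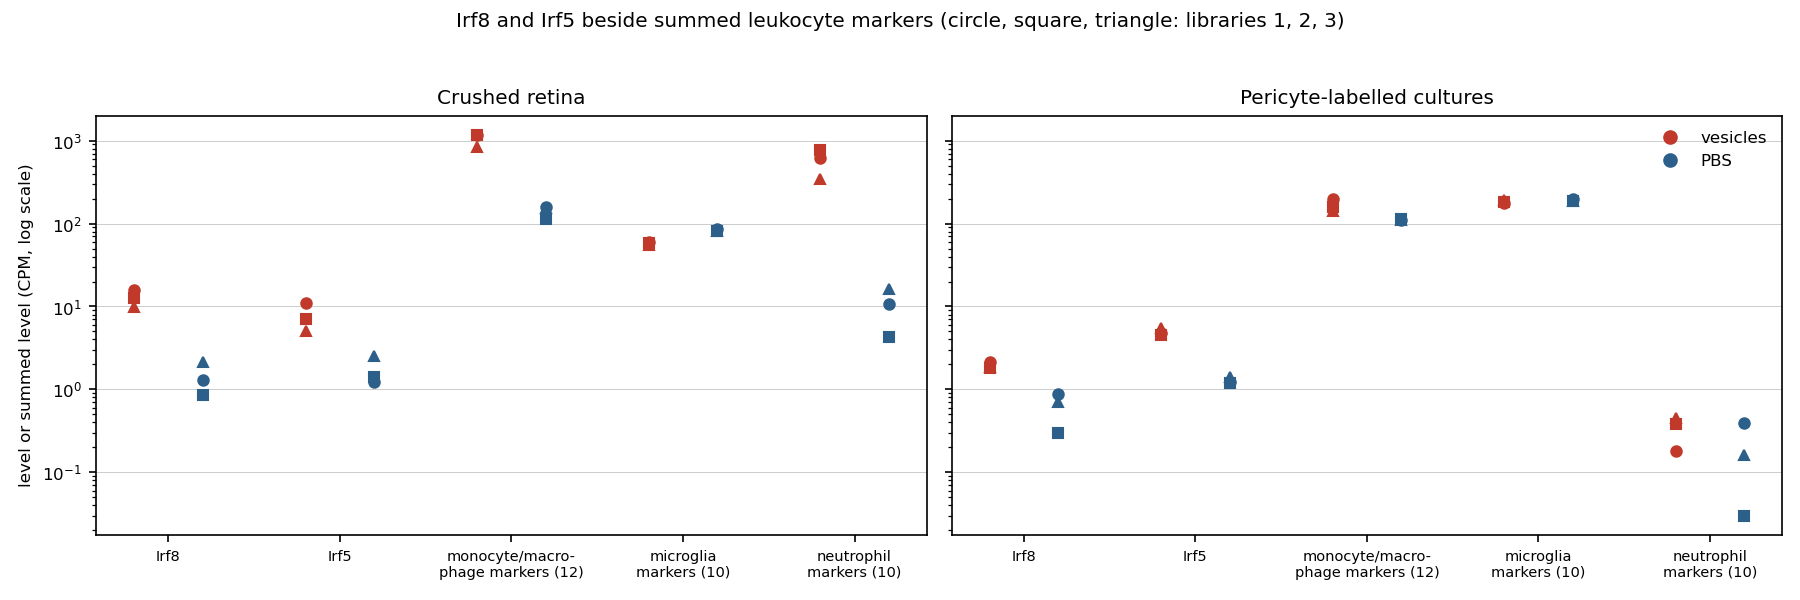
Levels of Irf8 and Irf5 and summed levels of monocyte and macrophage, microglia and neutrophil markers in every library (vertical axis, CPM, log scale; number of markers in brackets), with vesicles in red left of PBS in blue. In the retina the neutrophil and monocyte sums are above their PBS range in every vesicle library, as Irf8, Irf5 and the factors not shown here are. In the cultures the neutrophil sum never exceeds 0.458 CPM.

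The vesicle effect was then compared between the settings, as the retina log2 fold change minus the pericyte one, over 13712 genes tested in both tables. limma called 12.0% of them, 7.53% with a positive difference and 4.48% with a negative one. A negative difference can come from a smaller rise or a larger fall in the retina. Of the 8 factors, 2 were called, in opposite directions. The Irf9 rise was larger in the retina by 1.81 ± 0.32 on the log2 scale (95% interval from 1.13 to 2.50, adjusted p = 0.0018, limma). The Irf7 rise was smaller in the retina, with a difference of -2.55 ± 0.20 (95% interval from -2.97 to -2.13, adjusted p = 2.0e-06, limma). Both calls held under every alternative run, with adjusted p up to 0.012 for Irf9 and 2.4e-05 for Irf7. The settings also differ in tissue, time after treatment, route and gene annotation, which cannot be told apart.

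For the other 6 factors a difference did not pass the test. That of Irf8 was 1.48 ± 0.56 (95% interval from 0.29 to 2.67, adjusted p = 0.10, limma), and it was called without retina vesicle library 3 (1.66, adjusted p = 0.048) and without pericyte PBS library 2 (1.91, adjusted p = 0.029). Stat2 and Irf1 had differences of -0.38 ± 0.19 (95% interval from -0.78 to 0.02, adjusted p = 0.22) and -0.49 ± 0.21 (adjusted p = 0.15). Irf5, Irf2 and Irf3 had differences of 0.20 ± 0.46, -0.06 ± 0.24 and -0.02 ± 0.11, with adjusted p of 0.84, 0.91 and 0.93 in limma. The interval is narrow for Irf3 and wide for Irf5, whose counts were low in both tables.

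**Figure D3:**
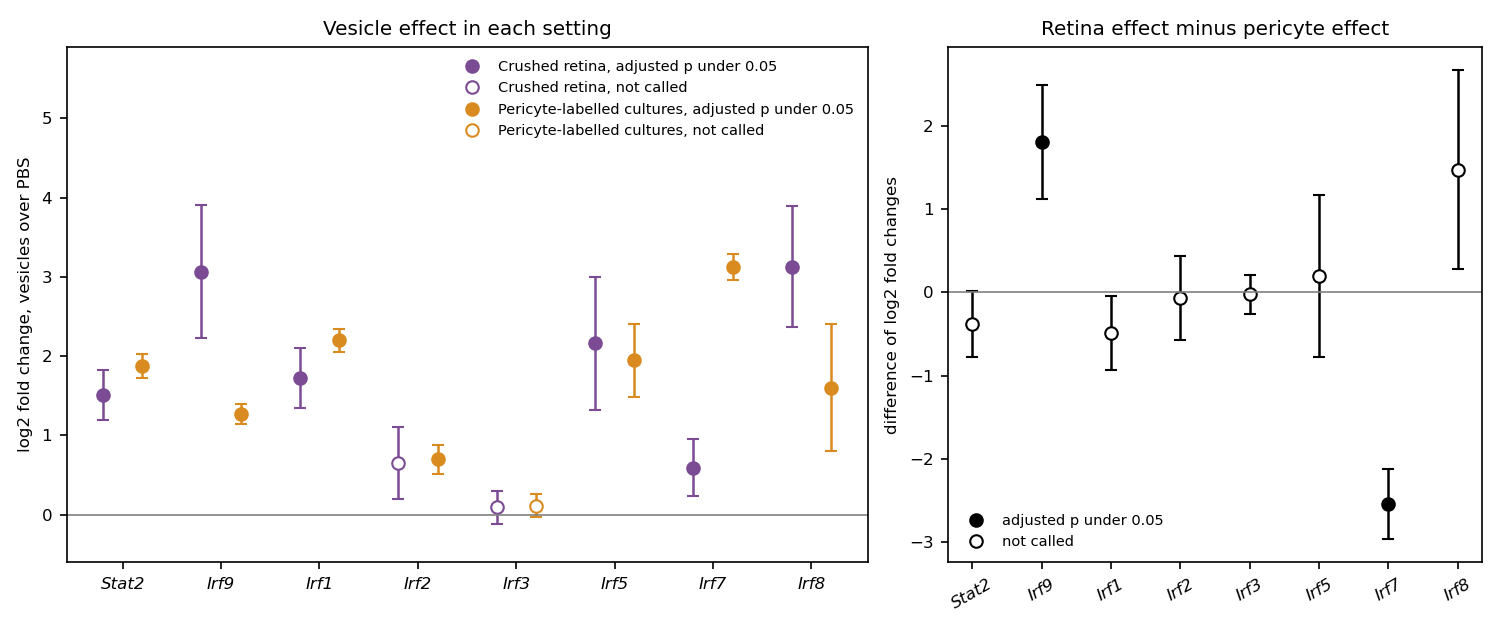
Left, log2 fold change of each factor, vesicles over PBS, in the retina (purple) and in the pericyte-labelled cultures (orange), with 95% intervals; filled points have an adjusted p under 0.05 in edgeR. Right, retina effect minus pericyte effect with 95% intervals; the filled points are Irf9 at 1.81 and Irf7 at -2.55.

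Levels of the factors can be ranked within a group only per length, as CPM per kilobase of exon, the scale of all values in this paragraph. In the vesicle retinas Irf3 (16.3) and Irf9 (15.0) led with overlapping library ranges, followed by Stat2 (8.30), Irf7 (7.79) and Irf1 (6.42), which overlapped from one to the next. Irf5 (2.67), Irf8 (1.80) and Irf2 (1.65) came last and overlapped likewise. In the PBS retinas Irf3 led alone at 15.3, and Irf9, at 1.79, overlapped with Irf1 (1.94) and Irf2 (1.05). Irf7 (5.17) and Stat2 (2.91) lay between Irf3 and Irf1, and Irf5 (0.592) and Irf8 (0.204) came last, each apart from its neighbours. In the vesicle cultures Irf7 (30.4), Irf1 (28.6) and Stat2 (25.9) led and overlapped from one to the next, ahead of Irf9 (20.9) and Irf3 (14.7). Irf2 (4.23), Irf5 (1.70) and Irf8 (0.273) closed that order. In the PBS cultures no neighbours overlapped, and the order was Irf3 (13.6), Irf9 (8.66), Stat2 (7.06), Irf1 (6.22), Irf7 (3.49), Irf2 (2.61), Irf5 (0.440) and Irf8 (0.0889). Irf3 thus led both PBS groups, and Irf7 came first in the vesicle cultures, its range overlapping that of Irf1, and below Irf1 in the PBS cultures.

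The rest of the pathway was read from 8 lists of other genes. No interferon gene of the ligand list passed the filter. In the retina 9 of 10 ligand genes were at 0 in every library, and the tenth, Ifng, had 2 counts in 1 library of each group. In the cultures 7 of 10 were at 0, and Ifnb1, the gene of interferon beta, had 1, 10 and 4 counts with vesicles, against 1, 0 and 0 with PBS. These counts are too few for a test at this depth.

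Among receptors and Janus kinases, 5 of 8 tested rose in the retina and 7 of 9 in the cultures, and 0 fell in either (medians 0.66 and 0.43). Ifnar2, a chain of the type I receptor, had 26.4 ± 5.66 CPM with vesicles and 8.89 ± 0.899 CPM with PBS in the retina (log2 fold change 1.57 ± 0.18, adjusted p = 0.00064). Il10rb, a chain shared by the type III and interleukin-10 receptors, rose by 2.23 ± 0.26 in the retina (adjusted p = 0.0010) and by 0.81 ± 0.091 in the cultures (adjusted p = 8.9e-07). Ifngr1, the ligand-binding chain of the gamma receptor, rose in the cultures by 1.00 ± 0.062 (adjusted p = 9.9e-11), while its retina change of 0.19 ± 0.12 did not pass (adjusted p = 0.31, edgeR). Jak1, the kinase of both receptor types, had changes of 0.0062 ± 0.084 in the retina and 0.014 ± 0.054 in the cultures, neither called.

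Of the other STAT genes, 5 of 6 tested rose in the retina and 4 of 5 in the cultures (medians 1.69 and 0.31), and 0 fell. Stat3, which carries interleukin-6 family signals, rose by 2.00 ± 0.21 in the retina (adjusted p = 0.0013, edgeR) and by 0.37 ± 0.058 in the cultures (adjusted p = 6.2e-05). The Stat3 effects differed by 1.62 ± 0.20 (adjusted p = 0.00018, limma). The remaining IRF genes and IRF2-binding proteins gave 0 calls among 5 tested in the retina with edgeR, and in the cultures 2 of 3 rose, Irf2bpl by 0.66 and Irf2bp2 by 0.21. The Irf2bp2 call was lost without vesicle library 3 or any 1 of the PBS libraries (adjusted p between 0.058 and 0.17).

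Adaptors and kinases that activate IRF3, IRF5 and IRF7 rose for 7 of 13 tested genes in the retina and 6 of 14 in the cultures, and 0 fell (medians 0.86 and 0.08). Ikbke, an inducible kinase of IRF3 and IRF7, had 9.66 ± 1.74 CPM with vesicles and 0.768 ± 0.129 CPM with PBS in the retina (log2 fold change 3.64 ± 0.28, adjusted p = 0.00010). Its rise in the cultures was 0.83 ± 0.10 (adjusted p = 3.8e-06). Myd88, the adaptor upstream of IRF5 and IRF7, rose by 2.20 ± 0.19 in the retina and by 1.18 ± 0.076 in the cultures. Tbk1, the constitutive kinase of IRF3, rose in the cultures by 0.46 ± 0.062, and its retina change of 0.07 ± 0.098 did not pass the test.

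In the list of feedback inhibitors, 7 of 11 genes rose in the retina, where Pias3 fell. In the cultures 6 of 11 rose and 0 fell. The list medians were 1.48 in the retina and 0.39 in the cultures. Members differed in the setting in which they moved most. Socs3, an inhibitor of Janus kinases that is also induced by STAT3, stood at 107, 111 and 54.0 CPM with vesicles, against 5.16, 3.34 and 5.47 CPM with PBS in the retina. Its log2 fold change was 4.28 ± 0.36 in the retina and 0.80 ± 0.074 in the cultures. Isg15, a ubiquitin-like modifier that was put on this list, stood at 139, 150 and 128 CPM with vesicles in the cultures. With PBS it stood at 8.25, 8.86 and 7.05 CPM there. Its log2 fold change was 4.12 ± 0.088 in the cultures and 1.69 ± 0.41 in the retina (adjusted p = 0.029). Usp18, which STAT2 recruits to the type I receptor to damp its signal, rose by 3.82 ± 0.081 in the cultures and by 2.00 ± 0.42 in the retina. The retina count of genes of this list that rose was 4 without PBS library 1 or PBS library 3. Without vesicle library 1, the highest, the retina changes were 1.09 for Isg15 and 1.41 for Usp18, both still called. Both calls were lost without any 1 of the PBS libraries, with adjusted p between 0.087 and 0.12 for Isg15 and between 0.052 and 0.061 for Usp18, and that of Isg15 also without vesicle library 2 (adjusted p = 0.055).

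Of 30 ISGF3 target genes, 30 of 30 rose in the cultures and 19 of 28 tested rose in the retina, and 0 fell in either (medians 2.72 and 1.65). Mx1 and Mx2 are not among the rows of the retina table analysed here. Ifit1, whose protein binds viral RNA, had 602 ± 51.9 CPM with vesicles and 32.4 ± 3.97 CPM with PBS in the cultures. In the retina Ifit1 stood at 64.4, 25.4 and 23.1 CPM with vesicles, against 10.7, 10.9 and 8.95 CPM with PBS. Vesicle library 1 stood apart there, also in the summed level of the list, at 646 CPM against 375 and 313 CPM in the other vesicle libraries and 175 to 191 CPM with PBS. The retina change of Ifit1 was 1.88 ± 0.44 (adjusted p = 0.041, edgeR) and 1.25 without vesicle library 1 (adjusted p = 0.0038). Its call was lost without vesicle library 2 (adjusted p = 0.051) or any 1 of the PBS libraries (adjusted p between 0.12 and 0.15). The retina count of the list was 11 without PBS library 1 and 12 without PBS library 2, and 13 to 22 without any other library. Ifit3 rose by 3.47 ± 0.072 in the cultures, while its retina change of 1.00 ± 0.40 did not pass (adjusted p = 0.16, edgeR). Parp9, Bst2, Ddx58 (the RIG-I gene) and Trim25, the retina calls with the smallest p, rose there by 1.70, 1.92, 1.61 and 1.41. Over the 28 genes tested in both, the retina log2 fold change was lower for 12 and higher for 0, with a median difference of -1.31, beside 0.02 over all 13712 genes.

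Of 24 tested gamma-activated and IRF1 target genes, 22 rose in the retina and 24 in the cultures, and 0 fell (medians 2.02 and 3.02). Cxcl10, a chemokine for activated T cells, had 13.4 ± 4.79 CPM with vesicles and 1.14 ± 0.472 CPM with PBS in the retina, and 427 ± 30.7 CPM with vesicles and 8.68 ± 1.58 CPM with PBS in the cultures. Nos2, the inducible nitric oxide synthase, had 4.39 ± 1.57 CPM with vesicles and 0.163 ± 0.125 CPM with PBS in the retina, and 51.8 ± 2.90 CPM with vesicles and 0.178 ± 0.11 CPM with PBS in the cultures. Both were called in both settings. The PBS counts of Nos2 were only 1, 5 and 2 in the retina and 6, 10 and 3 in the cultures. The size of its fold changes is therefore uncertain. Icam1, an adhesion molecule for leukocytes, rose by 4.63 ± 0.35 in the retina and by 3.06 ± 0.088 in the cultures. Over 23 genes tested in both, the retina log2 fold change was lower for 9 and higher for 0, with a median difference of -0.78.

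**Figure D4:**
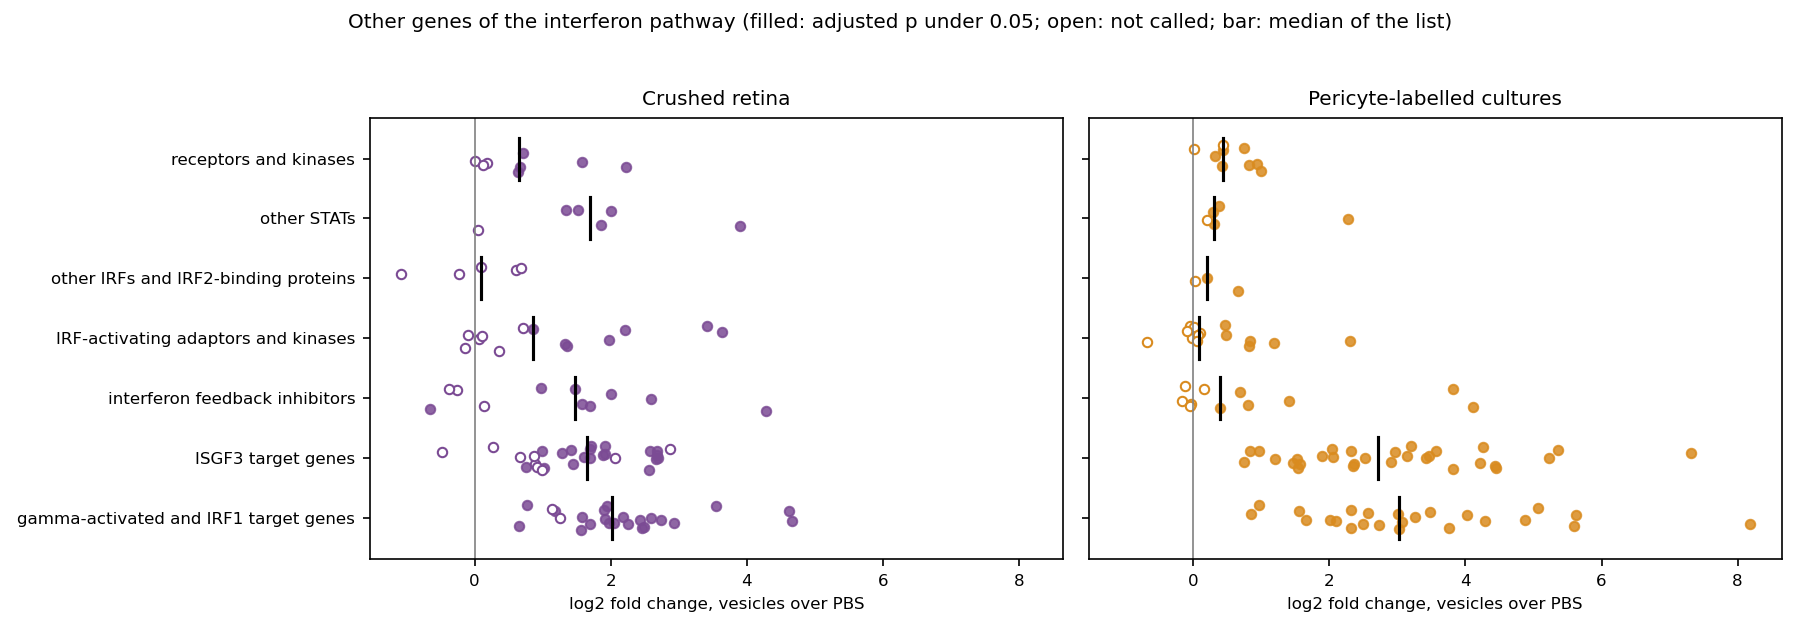
Log2 fold change, vesicles over PBS (horizontal axis), of each tested gene of 7 lists of the interferon pathway (rows; the 8 factors are not in them), in the retina (left) and in the pericyte-labelled cultures (right). Filled points have an adjusted p under 0.05 in edgeR and bars mark list medians, which for ISGF3 targets are 1.65 in the retina and 2.72 in the cultures.

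The genes whose log2 levels ran most like each factor over the 6 libraries of a table were looked up among 11022 retina and 11094 pericyte genes of at least 5 CPM. Pearson's r is given as a description, since all 6 points share the split into vesicles and PBS. In the retina Stat2 ran closest to Gbp7 (r = 0.999), a guanylate-binding protein gene, followed by Rfx2 and Ptges3. Irf7 ran with the interferon-stimulated genes Rtp4 (r = 0.986) and Parp14 (r = 0.981) and with Tomm22 (r = 0.979), a mitochondrial import gene that was not called. The 3 genes of Irf9 were Acot9, Cd47 and Lrrc2, those of Irf1 were Mcam, Fcer1g and Cnnm4, and those of Irf5 were Thap4, Parp1 and Trim25. Irf8 ran with Il1f9, Tgm2 and the haptoglobin gene Hp, Irf2 with Atf1, Plp2 and Arpc2, and Irf3 with Urb1, Rpl27a and Daxx. In the cultures Irf9 ran with Nos2, Isg15 and Gbp4, Irf1 with Nos2, Isg15 and Cd274, and Irf7 with Cmpk2, H2-D1 and Rnd1. Stat2 ran there with Abcc12, Tap2 and Adar, Irf5 with Ascc3, Fam43a and Slc25a25, and Irf2 with Ppfibp1, Nptx1 and C1qtnf1. Irf8 ran with Vps37c, Ankrd27 and Arhgap24, and Irf3 with Nek8, Gps1 and Cndp2. Irf3, which was not called, had a best r of 0.989 in the retina and 0.983 in the cultures.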

How the data were processed

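RNA extraction used Trizol and library preparation a NEBNext Ultra kit, per the labels' protocols. The submitters' processing notes name FastQC 0.11.8, HISAT2 2.0.5, featureCounts 1.5.0-p3 and limma. The genome build and annotation the authors used and the strand setting are not given in the sources used here. The deposited values are raw counts per gene, 1 table for 6 retina and 1 for 6 pericyte-labelled libraries. Every per-library column was used. The series text also describes knockdown cell lines that match none of the 12 samples.

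Each table was fitted on its own with edgeR 4.0.16 in R 4.3.3 (filterByExpr with a minimum count of 10, TMM, robust quasi-likelihood F test, 4 residual degrees of freedom). Tests were 2-sided and Benjamini-Hochberg adjusted over all genes tested, and an adjusted p under 0.05 was a call. The standard error is the size of the log2 fold change over the square root of F. Variation between libraries of a group beyond counting error (edgeR's common coefficient) came to 0.203 for retinas and 0.0818 for cultures, and may be technical. Effects were compared between tables with limma 3.58.1 (voom with a quality weight per table), in 1 model with a term for each table and its own vesicle effect. With 3 libraries against 3, exact permutation p-values cannot go below 0.1. CPM used TMM-scaled library sizes. Exon lengths and gene positions came from GENCODE M21 and promoter windows from RefSeq, all 8 factors matching by symbol. Replicates differed by at least 11.2 (retina) and 6.12 (cultures) in chi-squared over its degrees of freedom, so no libraries were copies. Reads carry no molecular identifiers, so floors cover counting error only. The scripts were tested on simulated data with planted changes.

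The factors, the gene lists and the tests were chosen with earlier results of these data known. The genes named are the 8 factors, up to 4 called genes with the smallest p per pathway list and table (a selection of these is printed), marker sums, and the 3 genes most like each factor by Pearson's r of log2(CPM + 0.5). Values of a named gene are in places given for 1 setting only. Ligand genes, Jak1, genes that overlap a factor and single markers were named outside that rule. Alternatives were RLE size factors, no low-count filter, DESeq2 1.42.0, limma voom, a replicate block, leaving out each library, and leaving out lens-rich libraries. Pathway list counts were also repeated without each library, added after seeing the data.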

Additional observations from a re-analysis of the deposited data

Results flagged for a closer look

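Effects of the vesicles that differed between the settings by a test of the difference itself (retina minus pericyte, limma, adjusted p under 0.05) were found for 2 of the 8 factors, Irf9 (1.81) and Irf7 (-2.55, all values on the log2 scale). Of 40 other pathway genes named by rule, 39 could be tested, 23 were called, 9 with a positive and 14 with a negative difference, beside 12.0% called among all 13712 genes. Differences were positive for Socs3 (3.43), Ikbke (2.76), Ptpn6 (2.71), Stat3 (1.62), Il10rb (1.38), Stat6 (1.37), Ptpn1 (1.09), Myd88 (1.01) and Ifnar2 (0.81). Ptpn6, the gene of the haematopoietic phosphatase SHP-1, was called in the retina alone. Differences were negative for the ISGF3 targets Ifit3b (-2.64), Ifit3 (-2.59), Ifit1 (-2.50) and Parp14 (-1.78). In the list of feedback inhibitors they were negative for Isg15 (-2.60) and Usp18 (-1.96). The same held for the gamma-activated genes Iigp1 (-3.78), Nos2 (-3.63), Gbp5 (-2.41), Cxcl10 (-2.09) and Gbp6 (-1.84), and for Ifngr1 (-0.82) and Tbk1 (-0.39). Nos2 had only 1, 5 and 2 counts in the retina PBS libraries, so the size of its difference is uncertain. Pias3 (-0.61) fell in the retina, by 0.65 on the log2 scale, and its culture change of -0.04 was not called. The genes were picked by their p within each table, so they are no sample of the pathway.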

How the results depend on the processing

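The pericyte results kept direction and call under every alternative run: 7 factors were called each time, among 3365 genes in all (2412 to 3500 leaving out 1 library each). With the replicate block the cultures gave 3287 called genes and 7 called factors, and the comparison of effects 1437 genes and 2 factors. Deviations of same-numbered culture libraries correlated at 0.0183, 0.0274 and -0.0238, so the numbers were not taken to pair them, and no paired analysis was possible in the retina because its columns carry no label-derived numbers.

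In the retina 2449 genes were called, 1328 to 2909 leaving out 1 library each. The fewest were called without PBS library 2 (1328), vesicle library 2 (1381) or vesicle library 1 (1401). Leaving out the most lens-rich library of each group, chosen after seeing the data, gave 1420. Called factors ranged from 5 to 7 of 8 there, and over single factors and alternatives the side of the threshold was kept 80 times, and a call was lost 5 times (Irf7 and Irf9) and gained 3 times (Irf2). For effects that differ between settings, 1647 genes were called, 952 (without retina PBS library 2) to 2151 leaving out 1 library each, with 2 to 3 factors. Leaving out 1 library each, the difference between settings turned sign for 3 factors, none of them called. That of Irf5 ranged from -0.082 (without retina vesicle library 1) to 0.51, that of Irf2 from -0.20 to 0.089 (without retina vesicle library 3; also 0.02 without retina PBS library 3), and that of Irf3 from -0.064 to 0.013 (without pericyte vesicle library 2; also 0.010 without pericyte PBS library 1). The causes were not tested. In the cultures the pathway list counts moved by at most 1 gene without any 1 library, a check added after seeing the data. With 3 libraries a group and 10 to 71 counts for Irf8 in the cultures, its difference between settings was not resolved.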
